A study of Mus musculus with 15 samples.

Results

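The orosomucoids (Orm1, Orm2, Orm3), the serum amyloid A genes (Saa1, Saa2, Saa3, Saa4) and 3 other acute-phase reactants, haptoglobin (Hp), lipocalin 2 (Lcn2) and serum amyloid P component (Apcs), were taken from a table of liver RNA-seq by gene symbol. All 10 genes were found among 19464 rows, each on 1 row, so no choice between rows was needed. The rule used symbols and read totals alone, but the set was in effect chosen by the genotype differences in read counts at 2 weeks, which were in view when it was proposed, and for the 10 genes that comparison, and what contains it, is therefore given as a description without p-values. Where the text says that such a value passed a threshold, this is part of the description and not support.

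The study set liver of mice lacking Stab1, the gene for the scavenger receptor Clever-1 (stabilin-1), against wildtype liver. The libraries came from Stab1 knock-out (Stab1-/-, n = 4) and wild type (n = 4) mice that were 2 weeks old, and from Stab1-/- (n = 3) and wildtype (n = 4) fetuses at embryonic day E17.5. Both genotypes carried the strain background C57BL/6N;129SvJ, no treatment is given, and whether the wildtype mice were littermates is not stated in the sources used here. The study's methods give these numbers as mice, while the labels only number the libraries. Stab1 itself lay lower in every Stab1-/- library, at 11.7% of the wildtype mean RPKM at 2 weeks and 25.4% at E17.5 (RPKM, reads per 1000 bases of gene and per 1000000 reads on genes).

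Acute-phase proteins are plasma proteins whose synthesis in the liver shifts during inflammation. Interleukin-6 acting through STAT3, and interleukin-1 and TNF acting through NF-kB and C/EBP factors, switch on their genes in hepatocytes, and glucocorticoids strengthen the response of the orosomucoids. Saa1 and Saa2 encode the inducible serum amyloid A of plasma, Saa4 a constitutive form, and Saa3 a form made largely outside hepatocytes, in macrophages and fat. Haptoglobin binds free hemoglobin, Apcs encodes the main acute-phase pentraxin of the mouse, and Lcn2 encodes a siderophore-binding protein stored in neutrophil granules and also made by stressed hepatocytes.

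In GENCODE vM21 on GRCm38, the orosomucoids form a cluster of 21.3 kb on the plus strand of chromosome 4, in the order Orm1, Orm3, Orm2. The 4 serum amyloid A genes lie within 42.3 kb on chromosome 7, in the order Saa3, Saa4, Saa1, Saa2, with Saa2 on the plus strand and the others on the minus strand. Hp is on chromosome 8, Lcn2 on chromosome 2 and Apcs on chromosome 1 (chr1:172893961-172895041, minus strand). The build used for the deposited counts is not given in the sources used here, so these positions only place the genes.

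Orm1 and Orm2 transcripts were 91% identical over 775 aligned bases, and Saa1 and Saa2 transcripts 94.4% identical over 606. Of all stretches of 50 bases, 79.6% in Orm1, 77.3% in Orm2, 85.2% in Saa1 and 86.7% in Saa2 occurred in transcripts of no other gene, against 100% in Hp, Lcn2 and Apcs. Because only uniquely mapped reads were counted, reads from the shared stretches of the orosomucoids and of Saa1 and Saa2 could be lost or assigned to the copy, and the split within those pairs is uncertain.

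The C/EBP motif TTGCNNAA, searched on both strands in the 250 bases before the RefSeq start (GRCm38.p6), was present in 7 of the 8 members with a promoter entry and in 9.56% of 32851 promoters. Orm1 and Hp had no entry, so the search does not cover them. A STAT3 motif (TTCNNNGAA) was present in 1 of the 8, Apcs, and in 7.02% of promoters, and the NF-kB consensus was in none of the 8 and in 3.9% of promoters. Apcs was the 1 member without the C/EBP letters, and Saa4 held them at 2 places. These are matches of letters and not measured binding. The 250 bases before the start are shown 5′ to 3′ for the neighbouring pairs Orm2 and Orm3 and Saa1 and Saa2, whose levels moved at 2 weeks or with age, and for Saa3 and Lcn2, which were high in fetal liver, with the C/EBP match in capitals. The windows are chr4:63362199-63362448 (plus strand) for Orm2, chr4:63355908-63356157 (plus) for Orm3, chr7:46742981-46743230 (minus) for Saa1, chr7:46751583-46751832 (plus) for Saa2, chr7:46715677-46715926 (minus) for Saa3 and chr2:32387740-32387989 (minus) for Lcn2.
Orm2: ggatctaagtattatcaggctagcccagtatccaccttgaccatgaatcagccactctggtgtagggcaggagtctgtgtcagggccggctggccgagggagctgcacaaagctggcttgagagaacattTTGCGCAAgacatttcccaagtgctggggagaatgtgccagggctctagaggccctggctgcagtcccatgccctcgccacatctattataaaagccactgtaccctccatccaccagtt
Orm3: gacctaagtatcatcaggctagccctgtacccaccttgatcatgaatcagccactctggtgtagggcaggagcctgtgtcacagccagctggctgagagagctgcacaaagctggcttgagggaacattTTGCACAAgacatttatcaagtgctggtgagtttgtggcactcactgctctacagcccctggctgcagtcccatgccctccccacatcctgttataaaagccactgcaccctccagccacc
Saa1: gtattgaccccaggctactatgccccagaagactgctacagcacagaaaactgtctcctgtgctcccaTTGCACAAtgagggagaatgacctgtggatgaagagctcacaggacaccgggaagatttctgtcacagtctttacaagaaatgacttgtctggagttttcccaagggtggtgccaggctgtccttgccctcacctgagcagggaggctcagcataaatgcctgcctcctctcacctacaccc
Saa2: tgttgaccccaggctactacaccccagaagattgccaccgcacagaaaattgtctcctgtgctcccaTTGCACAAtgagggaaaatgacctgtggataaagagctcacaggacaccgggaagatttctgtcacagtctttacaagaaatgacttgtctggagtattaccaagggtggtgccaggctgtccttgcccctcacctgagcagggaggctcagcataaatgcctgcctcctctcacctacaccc
Saa3: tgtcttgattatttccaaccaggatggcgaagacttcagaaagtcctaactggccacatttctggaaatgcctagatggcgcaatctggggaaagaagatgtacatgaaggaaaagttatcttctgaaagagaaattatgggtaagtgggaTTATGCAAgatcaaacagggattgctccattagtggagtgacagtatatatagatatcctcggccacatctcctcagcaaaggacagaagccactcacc
Lcn2: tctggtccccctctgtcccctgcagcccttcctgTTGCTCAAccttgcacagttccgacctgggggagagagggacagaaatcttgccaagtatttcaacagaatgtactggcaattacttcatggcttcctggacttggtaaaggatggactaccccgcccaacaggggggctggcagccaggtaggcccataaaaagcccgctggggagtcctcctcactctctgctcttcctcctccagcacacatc
The match lay 120 to 113 bases before the start in Orm2 and 121 to 114 in Orm3, within windows that were 89.4% identical. In Saa1 and Saa2 it lay 182 to 175 and 183 to 176 bases before the start, in windows that were 95.6% identical, so that each of these pairs shares 1 sequence and does not count as a pair of separate matches. The Saa3 match was nearer, 99 to 92 bases before the start, and the Lcn2 match farther, 216 to 209.

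Levels per length spread widely. Hp stood highest of the members in every group, at 2589 ± 395 RPKM (mean ± SD, n = 4) in wildtype liver at 2 weeks, which ranked 15 among 17158 rows with a read in that group. Apcs followed at 325 ± 104 RPKM and Saa4 at 109 ± 15.97. The next levels were 17.6 ± 3.18 RPKM for Lcn2, 6.72 ± 0.647 for Saa1, 4.37 ± 2.39 for Saa3 and 2.68 ± 0.243 for Saa2. Saa1 and Saa3, and Saa3 and Saa2, did not differ beyond the spread of Saa3. The orosomucoids were lowest, with 1.45 ± 0.885 RPKM for Orm1, 0.531 ± 0.226 for Orm2 and 0.191 ± 0.248 for Orm3. All of these are levels of liver not said to be challenged, in libraries with 9659 to 10964 reads on genes in units of 1000, so that the least abundant members rested on a few reads.

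**Figure D1:**
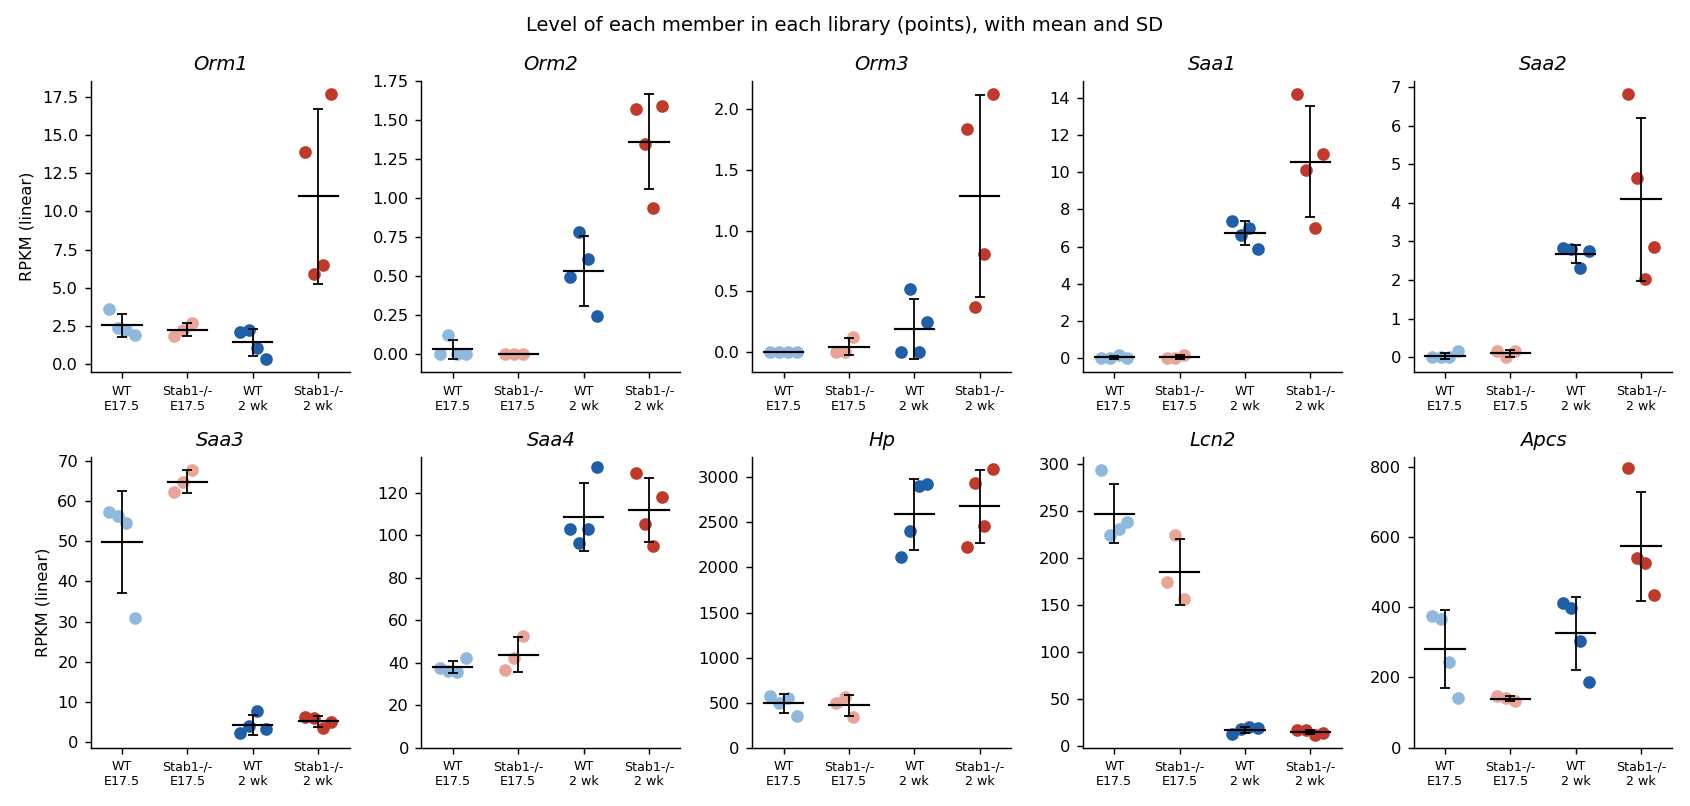
Level of each of the 10 members (linear RPKM, each panel with its own axis) in each library, in wildtype (WT) and Stab1-/- liver at E17.5 and 2 weeks. Points are libraries in replicate order, horizontal lines the group mean and bars the SD, and the separate Orm1 points of the 2-week groups, from 5.91 to 17.6 in Stab1-/- and from 0.366 to 2.23 in wildtype, contrast with the overlapping points of Hp.

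At 2 weeks, the orosomucoids were the members with the widest genotype differences. Orm1, which encodes alpha-1-acid glycoprotein, was counted at 105, 48, 48 and 132 reads in Stab1-/- replicates 1 to 4 and at 17, 17, 9 and 3 reads in wildtype replicates 1 to 4. Every Stab1-/- library lay above every wildtype library, replicates 1 and 4 standing above replicates 2 and 3 among the Stab1-/- libraries and replicate 4 lowest among the wildtype. Mean RPKM was 11.0 ± 5.74 in Stab1-/- (n = 4) and 1.45 ± 0.885 in wildtype liver (n = 4), a 7.55-fold ratio, and the fitted log2 fold change was 2.83 (SE 0.47). Leaving out any 1 of the 8 libraries moved this value between 2.47 and 3.10, so no single library carried it. The reads covered 78.7 to 82.9% of the gene model in Stab1-/- and 15.2 to 63.0% in wildtype libraries. Because this is whole liver, more cells that express a gene and more RNA per cell cannot be told apart, here or for any other member.

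Orm2, a second alpha-1-acid glycoprotein gene, was counted at 12, 11, 7 and 12 reads in Stab1-/- and at 4, 6, 5 and 2 reads in wildtype liver at 2 weeks. The groups did not overlap, though by 1 read. Over the groups, 42 reads stood against 17, a ratio of reads scaled to the library totals of 2.58, given as a description without an interval. Orm3 was counted at 14, 3, 6 and 16 reads in Stab1-/- and at 0, 4, 0 and 2 in wildtype liver. Stab1-/- replicates 1 and 4 were high as for Orm1, and replicate 2, with 3 reads, fell below wildtype replicate 2. The ratio over the groups was 6.80, again a description, as the groups overlapped and the reads were few. Neither gene passed the filter on low counts at 2 weeks, and both share stretches of sequence with Orm1, so their part in the Orm1 reads, and that of Orm1 in theirs, was not tested.

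Apcs was counted at 7941, 5781, 5154 and 4272 reads in Stab1-/- and at 4370, 3985, 3281 and 2015 reads in wildtype liver at 2 weeks. In RPKM, which corrects for the library totals, the lowest Stab1-/- library (433) lay just above the highest wildtype library (413), and the group means were 574 ± 155 and 325 ± 104, a ratio of 1.76. The fitted log2 fold change was 0.73 (SE 0.22) and did not pass an adjusted p of 0.05 in edgeR. Apcs lies 1.07 Mb from Ifi202b, which had reads in all 7 Stab1-/- libraries (46 to 135) and none in the 8 wildtype libraries, and Stab1 is on another chromosome, 14. The part of strain-derived sequence at that stretch of chromosome 1 was not tested.

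Saa1 and Saa2 leaned the same way at 2 weeks but with overlap. Saa1 was counted at 85, 65, 41 and 65 reads in Stab1-/- and at 47, 40, 45 and 38 in wildtype liver, so that Stab1-/- replicate 3 fell among the wildtype libraries. Saa2 was counted at 41, 30, 12 and 17 reads in Stab1-/- and at 18, 17, 15 and 18 in wildtype liver, with Stab1-/- replicates 1 and 2 high and replicates 3 and 4 below or close to the wildtype libraries. The log2 fold changes were 0.56 (SE 0.21) and 0.52 (SE 0.33), neither past the threshold. Without Stab1-/- replicate 1, in which both genes were highest, and over the other libraries left out in turn, they ranged from 0.42 to 0.72 for Saa1 and from 0.19 to 0.74 for Saa2.

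The more abundant members were close between the genotypes at 2 weeks. Hp averaged 2680 ± 405 RPKM in Stab1-/- and 2589 ± 395 in wildtype liver, with a log2 fold change of -0.04 (SE 0.17). Saa4 averaged 112 ± 15.02 and 109 ± 15.97 RPKM (log2 fold change -0.05, SE 0.14). Lcn2 and Saa3, the members also made by leukocytes, had log2 fold changes of -0.30 (SE 0.17) and 0.16 (SE 0.35), and their groups overlapped.

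In edgeR's fit at 2 weeks, 8 of the 10 members passed the filter on low counts, 1 (Orm1) was called higher at an adjusted p under 0.05 and none lower, where 0.936% of all 12716 genes tested were called higher and 1.74% lower. In RPKM, Orm1, Orm2 and Apcs had every Stab1-/- library above every wildtype library, and this held for 8.1% of the rows with a read. Nothing is read from these counts, since the comparison was in view when the members were chosen. The Stab1-/- libraries did not share 1 order. Replicate 1 was highest among them in 6 of the 10 members, replicate 4 was highest in the other 4 and replicate 3 was lowest in 6, while Orm1 and Apcs were above wildtype in replicates 2 and 3 as well.

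**Figure D2:**
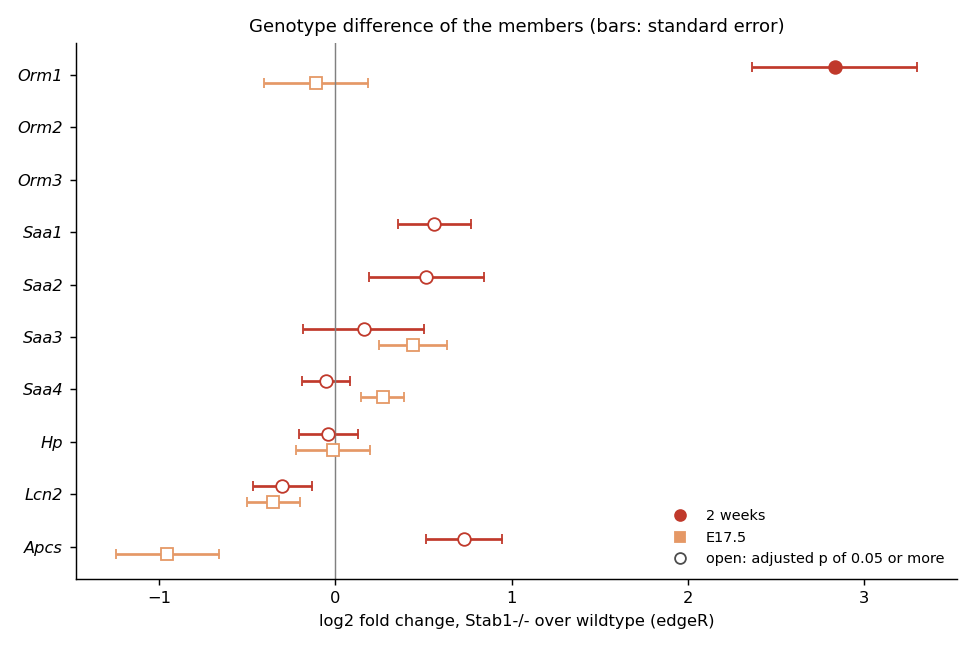
Fitted log2 fold change of Stab1-/- over wildtype for the members that passed the filter on low counts, at 2 weeks (circles) and at E17.5 (squares), with bars for the standard error and filled symbols for an adjusted p under 0.05 in edgeR. Orm1 at 2 weeks (2.83) is the one filled symbol, and Apcs lies on opposite sides of 0 at the ages (0.73 and -0.95). The 2-week symbols are a description, since that comparison was in view when the genes were chosen.

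At E17.5, Orm1 did not show the difference seen at 2 weeks. It was counted at 15, 18 and 22 reads in Stab1-/- and at 30, 19, 19 and 16 reads in wildtype liver, and the groups overlapped. The log2 fold change was -0.11 (SE 0.30, adjusted p = 0.895, edgeR), and it ranged from -0.25 to 0.11 with each library left out in turn. The read ratio of Orm1 at E17.5 was 0.889 (exact 95% interval 0.621 to 1.26, counting error only, without the spread between libraries). Orm2 had 1 read in all 7 fetal libraries and Orm3 1 read, in different libraries, and Saa1 and Saa2 had 2 and 3 reads, which is at or under the smallest level taken as detected, 3 reads a library. A genotype difference in these 4 genes was not detectable at this depth.

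Apcs and Lcn2 were lower, and Saa3 higher, in the fetal Stab1-/- means, without passing the test. Apcs was counted at 1566, 1489 and 1419 reads in Stab1-/- liver and at 4088, 3891, 2693 and 1528 reads in wildtype liver. Wildtype replicate 4 was close to the Stab1-/- libraries and the other wildtype libraries were all higher. Mean RPKM was 140 ± 7.41 (n = 3) and 282 ± 112 (n = 4), a difference of 2.01-fold in the means (log2 fold change -0.95, SE 0.29, adjusted p = 0.234, edgeR). Without wildtype replicate 4 the value became -1.18 (adjusted p = 0.0260), and it was not past the threshold when any other single library was left out.

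Lcn2 was counted at 1568, 2001 and 1411 reads in Stab1-/- and at 2693, 2003, 2157 and 2175 reads in wildtype fetal liver. In RPKM every Stab1-/- library was below every wildtype library, by a narrow margin between Stab1-/- replicate 2 (224.2) and wildtype replicate 2 (224.7). The means were 185 ± 35.2 and 247 ± 31.5 RPKM (log2 fold change -0.35, SE 0.15, adjusted p = 0.372, edgeR).

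Saa3 went the other way, with 347, 359 and 381 reads in Stab1-/- and 327, 312, 318 and 175 reads in wildtype fetal liver. Every Stab1-/- library lay above every wildtype library, and wildtype replicate 4, at 30.8 RPKM, lay far below the other 3, the next being 54.6. The means were 64.8 ± 2.80 and 49.7 ± 12.7 RPKM (log2 fold change 0.44, SE 0.19, adjusted p = 0.381, edgeR). Two-sided exact permutation tests gave p = 0.0571 for both Lcn2 and Saa3, the smallest that 3 against 4 libraries can give.

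Hp (469 ± 113 against 494 ± 103 RPKM) and Saa4 (43.9 ± 8.13 against 38.0 ± 3.05 RPKM) had log2 fold changes of -0.01 (SE 0.21) and 0.27 (SE 0.12), with adjusted p of 0.985 and 0.387 in edgeR. Of the 6 members that passed the filter at E17.5, none was called by edgeR, against 0.366% of 13388 genes tested in either direction, and 3 had an unadjusted p under 0.05 in edgeR. DESeq2 also called none. Saa3 lay above without overlap, as did 2.74% of rows with a read, and Lcn2 below, as did 7.2%.

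The genotype effect at 2 weeks minus that at E17.5 was positive for both Orm1 and Apcs. It was 2.98 on the log2 scale (SE 0.65) for Orm1 and 1.72 (SE 0.40) for Apcs, and these were the 2 of the 9 members tested that passed an adjusted p of 0.05 in edgeR, both higher, where 0.799% of 13885 genes did. As this difference contains the 2-week comparison, it too is a description, and nothing is read from these calls or their share. Both calls depended on single libraries. Orm1 fell short of the threshold when either Stab1-/- replicate 1 or wildtype replicate 3 or 4 at 2 weeks, Stab1-/- replicate 1 or 2 at E17.5 or wildtype replicate 1 or 2 at E17.5 was left out, with values between 2.66 and 3.02. Apcs fell short without Stab1-/- replicate 1, 2 or 3 or wildtype replicate 3 or 4 at 2 weeks, without any 1 of the 3 Stab1-/- replicates at E17.5, or without wildtype replicate 1 or 2 at E17.5, with values up to 1.76. Hp (0.01, SE 0.29), Lcn2 (0.08, SE 0.24), Saa3 (-0.24, SE 0.42) and Saa4 (-0.29, SE 0.20) were near 0. Orm2 (2.72, SE 1.68), Saa1 (0.25, SE 4.71) and Saa2 (-0.56, SE 1.02) had wide errors, as they rest on 3 fetal reads or fewer.

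**Figure D3:**
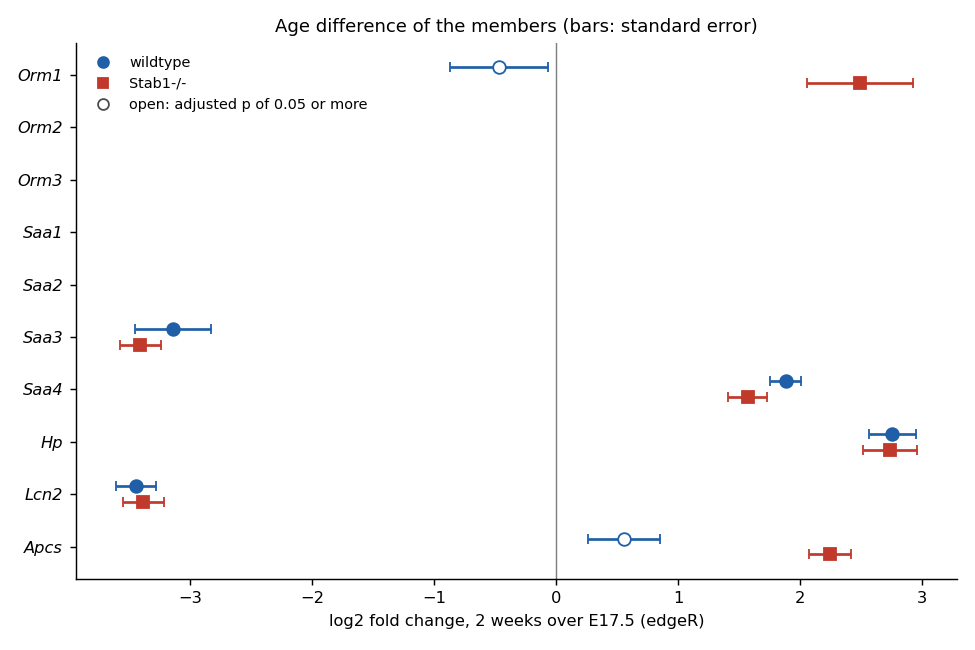
Fitted log2 fold change of 2 weeks over E17.5 in wildtype (circles) and Stab1-/- liver (squares), with bars for the standard error and filled symbols for an adjusted p under 0.05 in edgeR. Orm2, Orm3, Saa1 and Saa2 are left out because a group held 3 reads or fewer, and Hp and Saa4 lie to the right of 0 and Lcn2 and Saa3 to the left in both genotypes.

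With age the members parted in both directions. In wildtype liver 8 members passed the filter, 4 were called higher at 2 weeks and 2 lower, and 71.9% of the 13369 genes tested were called in either direction. In Stab1-/- liver 9 passed, 7 were called higher and 2 lower, and 72.5% of 13433 genes were called. Saa1 and Saa2 in both genotypes, and Orm2 in Stab1-/- liver, passed the filter only through the 2-week libraries and had to differ, and most genes changed between these ages, so the sizes and not the counts describe the members. The fits within the genotypes share no library, and age cannot be told apart from any difference in when the libraries were made, which the labels do not give.

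Saa1 and Saa2 were all but absent before birth and present afterwards. In wildtype liver Saa1 rose from 1 read in 4 fetal libraries to 170 reads in 4 libraries at 2 weeks, a ratio of reads scaled to the library totals of 175 (exact 95% interval 31.0 to 6949, counting error only), and in Stab1-/- liver from 1 to 256 reads, a ratio of 203 (36.1 to 8048). Saa2 rose from 1 to 68 reads in wildtype and from 2 to 100 in Stab1-/- liver. No library of one age overlapped the other for either gene. Orm2 went from 0 to 42 reads in Stab1-/- liver, at least 3.70-fold higher against a floor of 3 reads in each library, and from 1 to 17 reads in wildtype liver (ratio 17.49, 2.74 to 731). Orm3 went from 1 to 39 reads in Stab1-/- liver and from 0 to 6 in wildtype liver.

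Hp and Saa4, expressed at both ages, rose by similar amounts in both genotypes. Hp was counted at 5105 to 8467 reads in fetal and 30275 to 42631 reads in 2-week wildtype liver, with no overlap, and its log2 fold change was 2.76 (SE 0.19, adjusted p = 7.75e-08, edgeR) in wildtype and 2.74 (SE 0.22, adjusted p = 8.06e-07) in Stab1-/- liver. Saa4 rose by 1.88 (SE 0.13) and 1.57 (SE 0.16) on the log2 scale (adjusted p = 5.62e-08 and 4.70e-06, edgeR).

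Lcn2 and Saa3 fell steeply. Lcn2 was counted at 2003 to 2693 reads in fetal and 116 to 183 reads in 2-week wildtype liver, and its log2 fold change was -3.44 (SE 0.16, adjusted p = 2.66e-09, edgeR) in wildtype and -3.38 (SE 0.17, adjusted p = 1.70e-08) in Stab1-/- liver. Saa3 was counted at 175 to 327 reads in fetal and 13 to 44 reads in 2-week wildtype liver, with log2 fold changes of -3.14 (SE 0.31, adjusted p = 1.85e-06, edgeR) and -3.40 (SE 0.17, adjusted p = 1.84e-08). In 3 of the 4 wildtype fetal libraries Saa3 had more RPKM than Saa4 (group means 49.7 and 38.0), wildtype replicate 4 being the exception, while at 2 weeks Saa4 was far above it.

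The age differences of Orm1 and Apcs were higher in Stab1-/- than in wildtype liver, which is a description, since the 2-week Stab1-/- libraries were in view when the set was proposed. Orm1 had a log2 fold change of 2.49 (SE 0.43) in Stab1-/- liver and -0.47 (SE 0.40, adjusted p = 0.311, edgeR) in wildtype liver, where its reads ran from 16 to 30 before and from 3 to 17 after birth. Apcs had 2.25 (SE 0.17) in Stab1-/- liver and 0.56 (SE 0.29, adjusted p = 0.108, edgeR) in wildtype liver, and without wildtype replicate 4 at 2 weeks the latter was 0.75 (adjusted p = 0.0284). The difference of these age changes between the genotypes is the same quantity as the difference of the genotype effects between the ages given above.

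Markers of other cells moved beside several of these genes. The 16 neutrophil genes found of 17 listed include genes for granule proteins, receptors and transcriptional regulation. They summed to 5379 to 8589 RPKM in wildtype and 3803 to 4133 in Stab1-/- fetal liver. At 2 weeks the sums were 36.3 to 155 in wildtype and 198 to 432 in Stab1-/- liver. S100a8 and S100a9 made up most of each sum, at 184 and 202 of 432 RPKM in Stab1-/- replicate 1 at 2 weeks. Looked at by library, S100a8, S100a9 and Camp did not overlap between the genotypes at either age, while Mpo, Elane, Ngp and Ltf overlapped at both. All 16 were called lower at 2 weeks than at E17.5 in both genotypes, as Lcn2 and Saa3 were. Over all genes, 4948 of 13369 tested were called lower in wildtype and 4945 of 13433 in Stab1-/- liver. Only 11 of the 16 passed the filter on low counts among the 2-week libraries. The others passed it in the age fits through the fetal libraries and had to be lower, so nothing is read from this count. At E17.5 all 16 had a negative genotype log2 fold change and none was called (median -0.34, against 0.00 over all genes tested), as Lcn2 did and Saa3 did not. At 2 weeks all 11 tested had a positive one and none was called in edgeR (median 0.54, against -0.01), where Lcn2 was at -0.30. The study, however, listed S100a8, S100a9 and Camp among its significantly upregulated genes at 2 weeks. No gene of the list was at 0 in any group, and its part in the Lcn2 and Saa3 values was not tested.

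**Figure D4:**
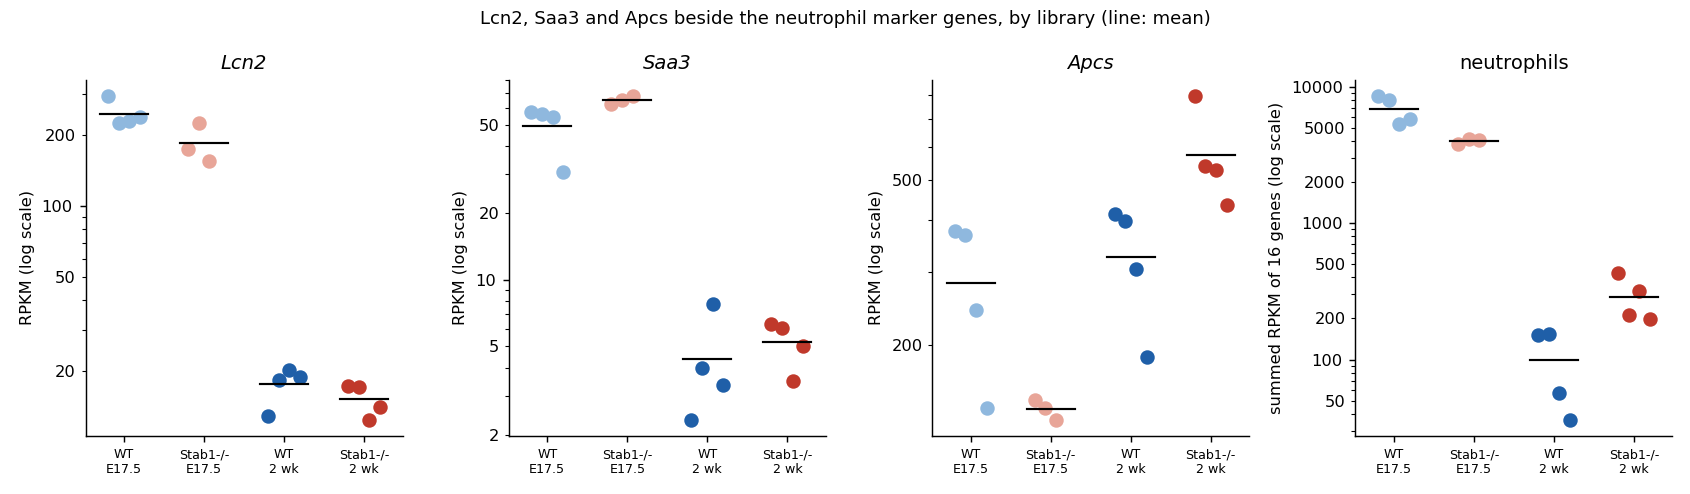
Lcn2, Saa3 and Apcs (RPKM, log scale) beside the summed RPKM of the neutrophil genes (log scale), by library, in wildtype (WT) and Stab1-/- liver at both ages, with points for libraries and lines for group means. Lcn2, Saa3 and the neutrophil genes are all far lower at 2 weeks, and the neutrophil sum is above wildtype in Stab1-/- liver at 2 weeks (198 to 432 against 36.3 to 155) and below it at E17.5. Most of this sum is S100a8 and S100a9.

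Macrophage and monocyte genes, relevant to Saa3, summed to 595 to 770 RPKM in Stab1-/- and 449 to 652 in wildtype liver at 2 weeks, with 0 of 14 called in edgeR. Hepatocyte genes, the defining markers of this tissue, were abundant in every library. At 2 weeks they summed to 74190 to 94042 RPKM in Stab1-/- and 95333 to 118406 in wildtype liver. There 2 of 10 were called lower (G6pc and Pck1), against 1.74% of all genes tested, and Orm1 was higher. Adipocyte genes (7 found of 8 listed) summed to 57.1 to 118 RPKM in Stab1-/- and 31.3 to 67.7 in wildtype liver at 2 weeks, with Adipoq and Retn at 0 in both groups and 0 of 2 tested called in edgeR, and their part in the Saa3 values was not tested. Erythroid genes, whose product haptoglobin clears when released, summed to 24906 to 34107 RPKM over all fetal libraries and 478 to 1636 at 2 weeks, while Hp ran opposite in age.

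Several fetal libraries held reads of neighbouring organs. Stab1-/- replicate 1 had 558 RPKM summed over intestinal genes, against 111 to 168 in the other fetal libraries, and wildtype replicate 2 had 2940 RPKM over pancreatic genes. Wildtype replicates 3 and 1 and Stab1-/- replicate 3 had 277, 93.4 and 79.7 RPKM over the same genes, against 11.8 to 13.7 in the other 3. Leaving out all of these would leave 1 fetal library of each genotype, so only the pair with the highest sums was left out. Without that pair, in a fit added after the data were seen, the log2 fold changes at E17.5 were -0.01 for Orm1, -0.34 for Lcn2, 0.55 for Saa3 and -0.82 for Apcs, none of them called. The difference of the genotype effects between the ages was then 2.86 for Orm1 and 1.57 for Apcs, neither past the threshold.

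As a set, the other acute-phase genes listed did not move as Orm1 did at 2 weeks in edgeR. The lists too were chosen with earlier results of these data known, so their adjusted p-values at 2 weeks describe and do not test. Of 28 other positive acute-phase genes, all tested, none was called higher and 1 lower (0.936% and 1.74% of all genes tested). The 1 was complement C3 at -0.67 (SE 0.15, adjusted p = 0.0430, edgeR). The median log2 fold change of the 28 was -0.08 against -0.01 over all genes. The study listed Orm1 and Mt2, 1 of the 28, as upregulated at 2 weeks, and Mt2 was not called here. Calls of these lists with DESeq2, which called more genes at 2 weeks, were not counted. At E17.5 1 of the 28 was called higher and none lower, where 0.366% of all genes tested were called in either direction. It was the protease inhibitor Serpina3n (2.34, SE 0.15, adjusted p = 0.000336, edgeR). It belongs to a family of related genes, and the sequence they share was not measured here. The 14 negative acute-phase genes, among them albumin and transthyretin, had 0 calls at either age in edgeR and a median of -0.20 at 2 weeks, and 9 of the 14 were negative there.

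Among genes that carry the acute-phase signal, 2 of 19 interleukin-6 and STAT3 genes tested at 2 weeks were called lower, where 1.74% of all genes were, and none higher (median -0.02, against -0.01 over all genes). They were Il6st, which encodes the receptor subunit gp130 (-0.53, SE 0.11, adjusted p = 0.0319, edgeR), and the STAT5 target and inhibitor Cish (-1.40, SE 0.30, adjusted p = 0.0323). Of 24 genes of interleukin-1, TNF and NF-kB signalling 1 was called higher, the co-receptor Il1rap (0.41, SE 0.09, adjusted p = 0.0455, edgeR), where 0.936% of all genes were, and none lower (median 0.08). None of 19 transcription factors of acute-phase genes was called by edgeR at 2 weeks, the C/EBP and STAT3 genes included (median -0.07). Among 13 glucocorticoid-responsive genes, relevant because Orm1 is a glucocorticoid target, 2 were called lower, the kinase Sgk1 (-0.68, SE 0.16, adjusted p = 0.0478, edgeR) and the gluconeogenic Pck1 (-0.90, SE 0.19, adjusted p = 0.0328), against 1.74% of all genes, and none higher (median -0.15). At E17.5 no gene of these 4 lists was called. As for the acute-phase lists, the calls at 2 weeks are descriptions.

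After the mean of each group was subtracted, the members varied largely apart from each other. Over the 15 libraries, Orm1 correlated with Apcs at 0.58 and with Orm2 at 0.57, Saa3 with Lcn2 at 0.61, and Saa2 with Hp at -0.64 (Pearson r, no test, from libraries that share their group and total reads). Over all genes that passed the filter, those most like Orm1 were Cox6a1 (0.93), Hibadh (0.90) and Pwwp2a (0.89), and those most like Saa1 were Rbks (0.83), Gm10536 (0.83) and Elp5 (0.81). Fpr1 (0.88), C9 (0.85) and Fcnb (0.83) were most like Lcn2. Fpr1 and Fcnb encode a formyl peptide receptor and a ficolin of neutrophils, and C9 a complement component. The genes named are the highest of all those compared, so part of each r comes from the choice itself.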

How the data were processed

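Liver RNA of 15 libraries in 4 groups of genotype and age was analysed. The authors deposited 1 table with 3 values per gene and library. The deposited counts are uniquely mapped reads per gene, the deposited RPKM values are these reads per 1000 bases of gene and per 1000000 reads on genes, and the authors also gave coverage, in percent of each gene model's length (read for the members only). Aligner, counting program, build and strand are not given in the sources used here. RPKM recomputed from the counts differed by at most 7.68e-12 percent. The 4 rows with a dash for a symbol carry a gene ID and stayed in the fits.

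The counts were tested on all genes with edgeR 4.0.16 (R 4.3.3), TMM, filterByExpr (minimum count 10, minimum total 15) and the quasi-likelihood test, two-sided, with Benjamini-Hochberg adjustment, for each age, each genotype and, over all 15 libraries, their interaction. Genes under 0.05 are called. Standard errors are the log2 fold change over the root of F. RPKM was compared by exact permutation tests, and correlations used log2(RPKM + 0.1). A level of 3 reads in a library was the detection floor, and read ratios carry exact 95% binomial intervals, which cover counting error only. The scripts were tested on simulated data.

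Alternatives were DESeq2 1.42.0, median-of-ratios scaling, no filter, all 15 libraries in one fit, the replicate number as a block and each library left out. Promoters are from RefSeq on GRCm38.p6, where 8 of the 10 members matched, and transcripts and positions from GENCODE vM21 on GRCm38. The 10 members are all named. Of the other gene lists, called genes were named by adjusted p. The members and lists were chosen with earlier results of these data known.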

Additional observations from a re-analysis of the deposited data

Results flagged for a closer look

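Of 29 groups of 4 libraries examined for a library far from the others, 2 held one, where chance gives about 1.45 (1 in 20). Saa2 in wildtype liver at 2 weeks was lowest in replicate 3, at 2.31 RPKM with the nearest at 2.77. Saa3 in wildtype liver at E17.5 was lowest in replicate 4, at 30.8 RPKM with the nearest at 54.6.

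The fitted genotype effect at 2 weeks minus that at E17.5 was 2.98 on the log2 scale for Orm1 and 1.72 for Apcs, both past the threshold in edgeR. As it contains the 2-week comparison that was in view when the genes were chosen, it is a description only. Orm1 was higher in 4 of 4 Stab1-/- libraries than in any wildtype library at 2 weeks and overlapped at E17.5, and Apcs was higher in 4 of 4 at 2 weeks and lower in the mean at E17.5. With each of the 15 libraries left out in turn, the threshold was still passed in 8 fits for Orm1 and in 5 for Apcs.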

How the results depend on the processing

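At 2 weeks 340 genes were called between the genotypes, against 861 with DESeq2, 703 with all 15 libraries in one fit and 116 to 648 with each library left out. At E17.5 49 were called, against 235 with DESeq2, 27 to 46 with each library left out and 31 without the pair of libraries highest in intestinal or pancreatic genes. The difference between the ages gave 251, 1058 with DESeq2, 30 to 684 with each library left out and 14 without that pair. The cause was not tested. With the replicate number as a block the 3 counts were 1181, 23 and 591. Correlations of deviations between same-numbered libraries were 0.202, 0.0219, 0.189 and 0.145 at 2 weeks and -0.00048, -0.127 and -0.181 at E17.5. Between differently numbered libraries they ran from -0.257 to 0.281 at 2 weeks and from -0.0994 to 0.260 at E17.5. The labels give no pairing and the numbers were not taken to pair the samples, but whether the 2-week libraries were paired is not known. Under the block Apcs was called at E17.5 (-1.16, adjusted p = 0.0403, edgeR) and with age in wildtype liver (0.61, adjusted p = 0.000374). As a description only, the 2-week value of Apcs passed the threshold under the block (0.76) and with DESeq2 (0.74). With age, the calls of Hp, Saa4, Saa3 and Lcn2 in both genotypes kept their direction and side of the threshold under all alternatives run. Depth limits Orm2, Orm3 and, before birth, Saa1 and Saa2, which rested on few reads, and 3 against 4 libraries cannot give an exact p under 0.0571.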

Other observations

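Other genes of the lists differed in their genotype effect between the ages. The lists were chosen with earlier results of these data known, so these calls and their adjusted p-values are descriptions. Among the other positive acute-phase genes, the antiprotease Slpi (1.80, SE 0.40, adjusted p = 0.0358, edgeR) and the mannose-binding lectin Mbl2 (1.43, SE 0.29, adjusted p = 0.0307) had a higher effect at 2 weeks than at E17.5 on the log2 scale, as Orm1 and Apcs did. C3 (-0.90, SE 0.22, adjusted p = 0.0482, edgeR) and Serpina3n (-2.69, SE 0.24, adjusted p = 2.77e-05) had a lower one, as did Il6st (-0.77, SE 0.15, adjusted p = 0.0263) and Stat3 (-0.73, SE 0.17, adjusted p = 0.0453), which encode parts of the interleukin-6 pathway. The neutrophil genes Camp, S100a8 and S100a9, 3 of 16 tested, had effects higher by 1.80, 2.55 and 2.46 (adjusted p = 0.0381, 0.0347 and 0.0437, edgeR). The effect of the monocyte receptor Ccr2, 1 of 14 macrophage and monocyte genes tested, was higher by 1.41 (adjusted p = 0.0493, edgeR). In all, 2 of 28 positive acute-phase genes were called higher and 2 lower in this comparison. Over all 13885 genes tested, 111 were called higher (0.799%) and 140 lower. The median of the 28 was -0.29 against 0.01 over all genes tested.

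With age, 18 of the 28 other positive acute-phase genes were called higher at 2 weeks and 5 lower in wildtype liver, and 16 and 7 in Stab1-/- liver. Of 14 negative acute-phase genes, 13 were called higher in wildtype liver and 11 in Stab1-/- liver, and none lower. Most genes tested changed with age, as given above. In wildtype liver, 4667 of all 13369 genes tested were called higher at 2 weeks and 4948 lower. In Stab1-/- liver, 4791 of 13433 were called higher and 4945 lower.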
